A study of Homo sapiens with 6 samples.

Results

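The genes described here make sterols and fatty acids or control that synthesis, and most are known targets of the sterol regulatory element-binding proteins (SREBPs). They were chosen by symbol from a list of 36 genes, and all 36 were found among the 18398 genes of the count table. The list follows the path from acetyl-CoA to cholesterol and to long-chain fatty acids, with regulators and transporters of sterols, and does not hold every gene of these pathways. Its members were RNA-sequenced in SUM159, a cell line from a human breast cancer of the triple-negative kind (lacking estrogen and progesterone receptors and excess HER2), grown with serum, insulin and hydrocortisone. The control group was 3 libraries of cells carrying the empty pLVX lentiviral vector, and the POGK group was 3 libraries of stable cells overexpressing POGK from that vector. POGK is a KRAB domain protein derived from a pogo transposable element, and the stated aim of the study was to find the genes it regulates. The labels do not say whether the stable cells were a pool or 1 clone, nor whether each replicate was a culture of its own. The p-values therefore reflect spread between 6 libraries that may be technical.

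Cells sense sterols in the membrane of the endoplasmic reticulum. When sterols are scarce, SCAP escorts the SREBP precursors to the Golgi, where 2 proteases cut them and release the transcription factor, and when sterols are plentiful INSIG proteins hold SCAP back. SREBP-2, the product of SREBF2, acts mainly on sterol genes and SREBP-1, the product of SREBF1, mainly on fatty acid genes. Excess cholesterol is exported by ABC transporters that oxysterol-activated liver X receptors (LXRs) induce.

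Total counts ran from 27645789 to 33689230 per library. POGK itself rose 11.1-fold, from 62.6, 77.3 and 66.9 CPM (counts scaled by library size) in control libraries to 743, 781 and 780.3 CPM in POGK libraries. Genes were tested with edgeR on the whole table and called at an adjusted p below 0.05, and of 15889 genes tested 66% were called. Replicates were closer to each other in the POGK group: the median coefficient of variation over all tested genes was 13.5% in control and 4.44% in POGK libraries, and over the 36 members it was 8.19% and 4.15%. The mesenchymal markers VIM, FN1, CD44, ZEB1, AXL and SPARC were abundant, with a summed level of 10174 to 12889 CPM in control and 6102 to 6179 CPM in POGK libraries. ESR1 and EPCAM were at 0.21 and 0.22 CPM in control cells, and PGR and CDH1 were not found in the count table. The mean ZEB1 level was 61.7 CPM in control and 49.2 CPM in POGK cells. ERBB2, KRT8 and KRT18 were present, at control means of 72.9, 342 and 125 CPM, and GATA3 and FOXA1 were low, at 8.60 CPM and below. Markers of adipocytes summed to 3.26 to 5.07 CPM in control and 2.43 to 2.93 CPM in POGK libraries over 3 of 5 listed genes (PLIN1, FABP4 and CIDEC), those of leukocytes to 1.21 to 1.88 and 1.79 to 2.46 CPM over 2 of 6 (PTPRC and CD14), and those of endothelium to 5.39 to 7.48 and 4.56 to 5.03 CPM over 3 of 4 (PECAM1, VWF and TEK). The part of any such cells in the results was not tested. In bulk RNA, fewer cells of a type and less RNA per cell cannot be told apart.

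The promoters of 6 members are shown because they span the responses described below: HMGCS1, IDI1 and NSDHL had the largest rises in the sterol branch, SREBF2 and SCD fell, and INSIG1 did not pass the test. Each is the RefSeq window (GRCh38.p14) from 250 bases before to 50 bases after an annotated start, the one nearest the gene's GENCODE start, written 5′ to 3′ on the gene's strand. Capitals mark CCAAT boxes (CCAAT, the NF-Y motif found beside many SREBP sites), E-boxes (CACGTG) and a core of the sterol regulatory element, SRE (TCACNCCAC), on either strand. The windows lie at chr5:43313363-43313662 (minus strand), chr10:1049070-1049369 (minus), chrX:152830813-152831112 (plus), chr22:41832855-41833154 (plus), chr7:155297628-155297927 (plus) and chr10:100346983-100347282 (plus).
HMGCS1: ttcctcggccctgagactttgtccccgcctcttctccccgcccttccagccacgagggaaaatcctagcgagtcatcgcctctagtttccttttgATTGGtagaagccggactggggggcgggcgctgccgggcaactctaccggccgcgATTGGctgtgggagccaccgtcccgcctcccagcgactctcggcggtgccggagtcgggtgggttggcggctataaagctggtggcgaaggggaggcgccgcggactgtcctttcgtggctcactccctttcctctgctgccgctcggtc
IDI1: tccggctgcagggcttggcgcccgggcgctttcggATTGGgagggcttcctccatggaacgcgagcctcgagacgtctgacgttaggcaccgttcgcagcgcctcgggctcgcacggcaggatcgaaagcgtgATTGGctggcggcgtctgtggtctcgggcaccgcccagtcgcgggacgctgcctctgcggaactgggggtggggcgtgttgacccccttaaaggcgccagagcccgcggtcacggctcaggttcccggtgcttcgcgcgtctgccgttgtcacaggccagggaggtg
NSDHL: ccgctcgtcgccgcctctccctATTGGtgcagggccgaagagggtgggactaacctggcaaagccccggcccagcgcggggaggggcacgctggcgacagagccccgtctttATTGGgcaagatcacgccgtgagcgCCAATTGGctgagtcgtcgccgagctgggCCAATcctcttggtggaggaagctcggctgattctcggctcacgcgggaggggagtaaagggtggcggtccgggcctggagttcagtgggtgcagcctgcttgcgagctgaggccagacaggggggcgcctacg
SREBF2: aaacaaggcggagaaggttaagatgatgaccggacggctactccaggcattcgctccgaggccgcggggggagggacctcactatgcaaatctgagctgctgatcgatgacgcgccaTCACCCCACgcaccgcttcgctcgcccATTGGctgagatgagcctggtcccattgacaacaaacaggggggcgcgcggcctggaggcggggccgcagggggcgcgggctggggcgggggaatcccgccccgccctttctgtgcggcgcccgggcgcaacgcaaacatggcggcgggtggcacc
INSIG1: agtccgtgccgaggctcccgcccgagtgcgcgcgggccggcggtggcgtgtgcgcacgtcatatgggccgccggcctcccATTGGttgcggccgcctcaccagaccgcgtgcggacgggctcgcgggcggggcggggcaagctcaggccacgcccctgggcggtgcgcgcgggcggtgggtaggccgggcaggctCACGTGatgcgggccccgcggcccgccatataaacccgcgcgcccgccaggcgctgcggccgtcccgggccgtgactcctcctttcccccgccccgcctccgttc
SCD: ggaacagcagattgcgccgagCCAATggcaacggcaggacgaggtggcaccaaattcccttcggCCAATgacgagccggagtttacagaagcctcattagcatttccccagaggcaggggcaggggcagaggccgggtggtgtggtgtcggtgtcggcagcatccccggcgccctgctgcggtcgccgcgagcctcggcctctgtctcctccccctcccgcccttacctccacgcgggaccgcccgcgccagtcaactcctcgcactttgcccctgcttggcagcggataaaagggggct

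Promoter windows matched 31 of the 36 members by symbol, and a gene counted as holding a motif when any of its listed starts did. ABCG1, ACAT2, FASN, FDFT1 and SQLE had no window and were not searched for any motif. A CCAAT box stood in 22 of the 31 (71%), against 39.7% of all 27305 genes in the RefSeq table. Those 27305 include genes outside the count table and were not matched to the members in expression or gene type. By response among the 31, a CCAAT box stood in 11 of 12 that rose, 5 of 7 that fell and 6 of 12 that did not pass. The NSDHL window held 5 matches, of which a pair overlapped on opposite strands, and the IDI1 window shown held 2. A GC box (GGGCGG), the motif of SP1, was in 29 of 31 members and in 48.3% of all genes. An E-box was in 6 of 31 members and 8.77% of all genes. The SRE core was in 1 member window, that of SREBF2, and in 1.39% of all genes, and the LXR motif DR4, a direct repeat of AGGTCA with 4 bases between, was in 0 of 31 members and 0.0256% of all genes. No match of 1 of these motifs overlapped a match of another in the member windows. A match describes letters and not a bound site, and the absence of one says only that these letters are not in these windows.

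All 36 members passed the filter on low counts, and 24 were called, 15 higher and 9 lower in POGK cells, with 12 that did not pass. That is 66.7% of the members, close to the 66% of all genes. Higher calls made up 32.7% and lower calls 33.3% of all genes tested. Control and POGK libraries did not overlap for 27 of the 36, where 73.7% of all genes did not. At least 2-fold changes were called for 7 members, against 22.3% of all genes. They were 4 rises, of HMGCS1, NSDHL, IDI1 and ACLY, where 9.58% of all genes rose as far, and 3 falls, of ABCG1, ABCA1 and TM7SF2, where 12.7% fell as far. With library size alone as scaling, which moved the median of all genes from 0.0025 to 0.19 on the log2 scale, 22 members were higher and 6 lower, so all directions are relative to the main (TMM) scaling.

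**Figure D1:**
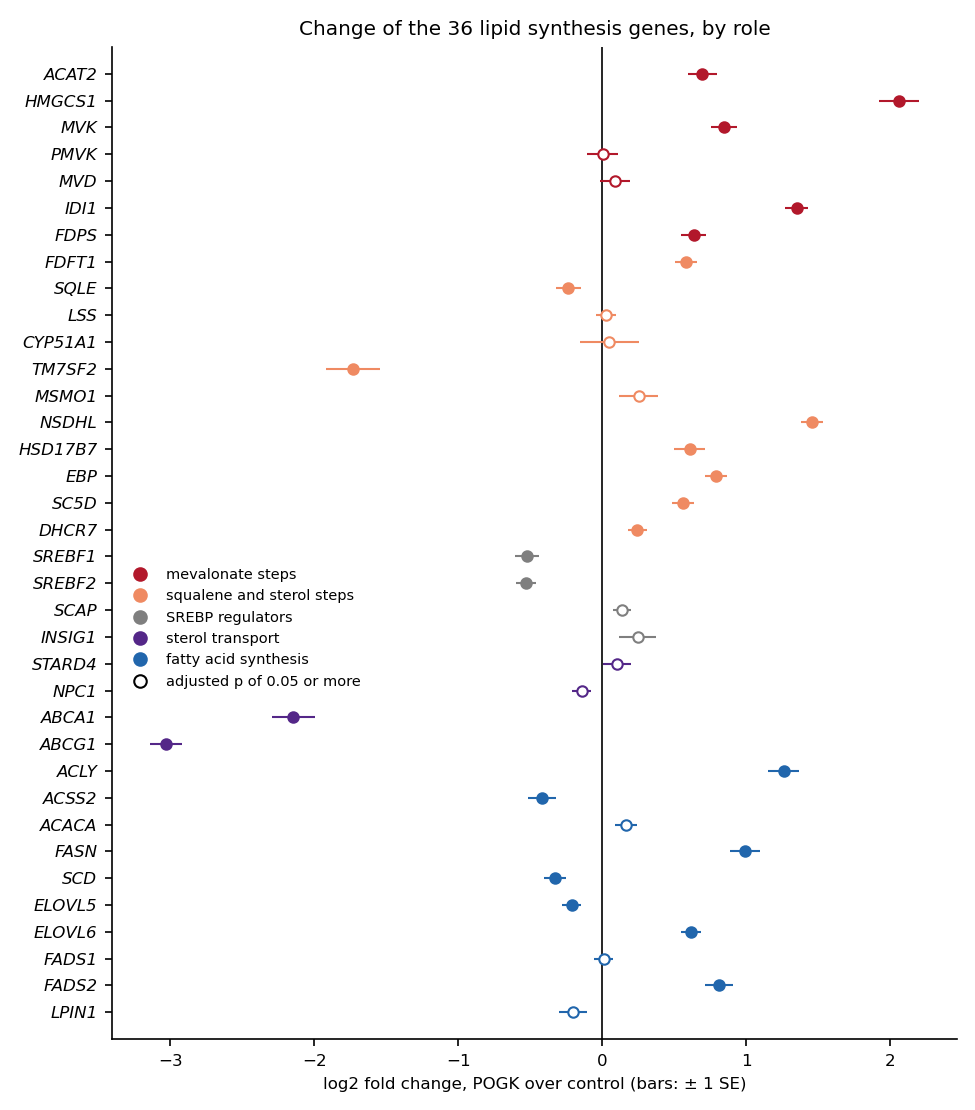
Log2 fold change of POGK over control cells (x axis) for the 36 genes (y axis), in pathway order and coloured by role. Points are edgeR estimates with bars of 1 standard error, and open points did not reach an adjusted p below 0.05. HMGCS1 is farthest to the right at 2.06 and ABCG1 farthest to the left at -3.03.

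Of the 7 genes from acetyl-CoA to farnesyl diphosphate, 5 rose and 0 fell (71.4% called, against 66% of all genes), and 2 did not pass. Their median log2 fold change was 0.69, where that of all genes was 0.0025. HMGCS1, the cytosolic HMG-CoA synthase (ENSG00000112972, chr5:43287470-43313512, minus strand, hg38), was at 79.9, 59.0 and 85.7 CPM in control and 341, 296 and 299 CPM in POGK libraries. Every POGK library lay far above every control library. The rise was 4.17-fold, with a log2 fold change of 2.06, a standard error of 0.14 and an edgeR adjusted p of 7.67e-06. HMGCS1 shares 2497 exon bases, 37.7% of its own, with a noncoding gene on the opposite strand that has no row of its own here, and the strand setting of the counting is not given in the sources used here.

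IDI1, which isomerises isopentenyl diphosphate, was at 47.0, 42.7 and 50.4 CPM in control and 123, 114 and 119.8 CPM in POGK libraries, again without overlap. It rose 2.55-fold at an edgeR adjusted p of 4.47e-06. MVK, mevalonate kinase, rose 1.79-fold, from 13.3 ± 0.84 to 23.8 ± 0.55 CPM (mean ± SD, n = 3 in each group, here and below). ACAT2, the cytosolic thiolase of the first step, rose 1.62-fold, from 40.9 ± 5.75 to 66.1 ± 1.94 CPM. It shares 454 exon bases, 17.2% of its own, with TCP1 on the other strand. TCP1, a chaperonin subunit with 106418 counts over the 6 libraries against 10265 for ACAT2, itself rose 1.51-fold, and its part in the ACAT2 counts was not tested. FDPS, which makes farnesyl diphosphate, rose 1.55-fold, from 84.5 ± 9.30 to 131 ± 5.00 CPM. Reads could be split with annotated pseudogenes, of which FDPS has 8, IDI1 and CYP51A1 3 each, HSD17B7 2 and SCD 1. IDI1 shares 15.0% of its exon bases with IDI2-AS1 on the opposite strand, which has no row here. FDPS shares 18.6% with RUSC1-AS1, which had 290 counts over the 6 libraries against 20635 for FDPS. The part of these reads was not tested.

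The steps between these did not pass the test. PMVK, phosphomevalonate kinase, stood at 12.9, 13.0 and 11.3 CPM in control and 12.5, 11.6 and 13.2 CPM in POGK libraries. MVD, the decarboxylase after it, stood at 25.2, 21.8 and 27.9 against 28.1, 25.8 and 25.5 CPM. Both ranges overlapped, at edgeR adjusted p-values of 0.987 and 0.488. Neither difference could be given a stable direction: that of PMVK was -0.065 on the log2 scale without control replicate 3 and 0.20 with library size alone.

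**Figure D2:**
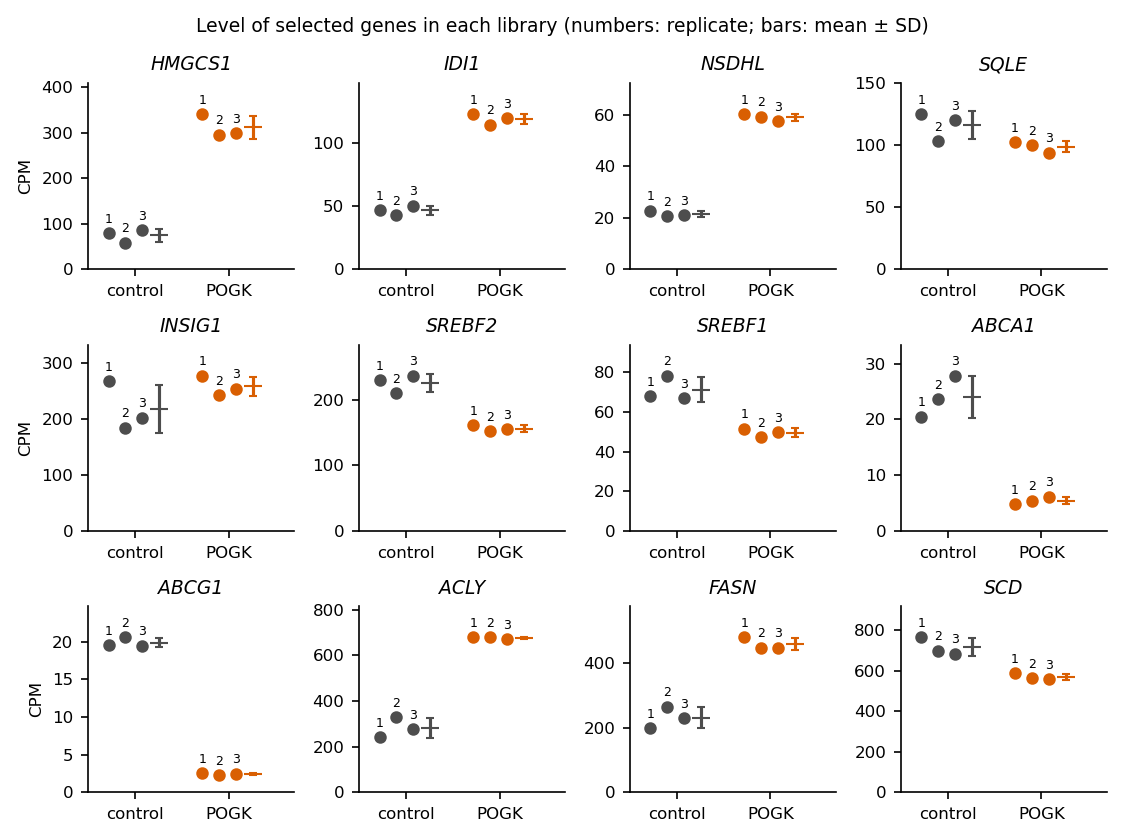
Levels in CPM (y axis, from 0) of 12 of the genes in each control and POGK library, with the replicate number above each point and the group mean ± SD beside the points. HMGCS1, IDI1, NSDHL, ACLY and FASN are higher in all 3 POGK libraries, SREBF1, SREBF2, ABCA1, ABCG1 and SCD are lower, and the groups overlap for INSIG1.

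From farnesyl diphosphate to cholesterol, 6 of 11 genes rose and 2 fell (72.7% called, against 66% of all genes), and 3 did not pass. Their median log2 fold change was 0.25. NSDHL, a sterol dehydrogenase that helps to remove the C4 methyl groups, changed most among those that rose. Its levels were 22.8, 20.7 and 21.1 CPM in control and 60.3, 59.3 and 57.4 CPM in POGK libraries. The libraries of each group were tightly placed, and the rise was 2.74-fold at an edgeR adjusted p of 3.26e-06. HSD17B7, the reductase of the same C4 demethylation, rose 1.52-fold from a low level of 8.95 ± 0.67 CPM, whereas MSMO1, the oxidase that opens it, did not pass.

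EBP, the sterol isomerase, rose from 84.2 ± 6.04 to 145 ± 6.17 CPM, or 1.73-fold, and shares 36.4% of its exon bases with another gene on the same strand. FDFT1, squalene synthase and the first enzyme committed to sterols, rose from 140.4 ± 4.39 to 210.0 ± 15.1 CPM, a log2 fold change of 0.58. SC5D, the sterol desaturase, rose 1.48-fold, from 30.4 ± 1.64 to 44.8 ± 0.85 CPM. DHCR7, a reductase at the end of the path, had the smallest rise of the branch, 1.18-fold from 75.9 ± 2.72 CPM, and its adjusted p of 0.0105 became 0.0636 without POGK replicate 1.

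SQLE, squalene epoxidase and a slow step of sterol synthesis, was at 125, 104 and 121 CPM in control and 103, 99.98 and 94.2 CPM in POGK libraries. The lowest control library lay just above the highest POGK library, and the fall of 1.18-fold passed at an edgeR adjusted p of 0.034. This call was lost with DESeq2, with library size alone and without any 1 of control replicates 1 and 3 or the POGK replicates. The log2 fold change of SQLE ran from -0.31 to -0.04 over all 14 alternatives. DESeq2 called 23 members and 10268 of 18397 genes (55.8%), without the filter on low counts. The main test called 10487 of the 15889 genes left by that filter. In the authors' deposited table the log2 fold change of SQLE was -0.23 with an adjusted p-value of 0.0969. The other 23 called members were also called there, in the same direction.

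TM7SF2, a sterol C14 reductase whose reaction a second enzyme can also carry out, fell 3.32-fold. Its level was low throughout, at 4.91, 4.47 and 5.56 CPM in control and 1.48, 1.22 and 1.82 CPM in POGK libraries, which did not overlap. LSS, which closes the ring to lanosterol, held at 58.6 ± 3.10 and 59.6 ± 0.59 CPM at an adjusted p of 0.756. MSMO1 was at 179, 119 and 136 CPM in control and 183, 167 and 168 CPM in POGK libraries. Control replicate 1 lay within the POGK range, and without it the difference of MSMO1 passed, at a log2 fold change of 0.44 in place of 0.25.

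CYP51A1, lanosterol demethylase, was counted at 4.46 ± 0.74 CPM in control and 4.61 ± 1.13 CPM in POGK cells. Of its exon bases, 68.2% are shared with a gene annotated on the same strand and 67.8% with another such gene. These have no row of their own here, and how reads in shared exons were assigned is not given in the sources used here. Its counts, 865 over all 6 libraries, are therefore uncertain as a measure of the gene.

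Of the 10 fatty acid genes, 4 rose and 3 fell (70% called, against 66% of all genes), and 3 did not pass. Their median log2 fold change was 0.09. ACLY, which makes cytosolic acetyl-CoA from citrate for both branches, was at 242, 329.6 and 276 CPM in control and 679.7, 679.6 and 669.5 CPM in POGK libraries. The POGK libraries lay close together, while control replicate 2 stood above the other controls. ACLY rose 2.39-fold, with a log2 fold change of 1.26, a standard error of 0.11 and an edgeR adjusted p of 2.45e-05. ACSS2, which makes the same acetyl-CoA from acetate, went the other way, at 69.7, 60.7 and 75.9 CPM in control and 55.4, 51.0 and 47.7 CPM in POGK libraries. It fell 1.34-fold at an adjusted p of 0.0044, and with library size alone the call was lost, at a log2 fold change of -0.23.

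FASN, the synthase that builds palmitate, was at 198, 265 and 229.8 CPM in control and 480.5, 448 and 448 CPM in POGK libraries. No control library came near the POGK range, and FASN rose 1.98-fold at an adjusted p of 6.58e-05. ACACA, the carboxylase that feeds it with malonyl-CoA, did not pass, at 123 ± 10.9 and 138 ± 2.21 CPM and an adjusted p of 0.0827. Its POGK range, from 136 to 140.2 CPM, lay just above control replicate 2 at 135 CPM, and it passed without that library at a log2 fold change of 0.24.

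The enzymes that modify palmitate split. SCD, the stearoyl-CoA desaturase, was the fatty acid gene with the most counts in control cells, at 766, 698 and 685 CPM, and stood at 588, 562 and 558 CPM in POGK libraries. It fell 1.26-fold, without overlap, at an adjusted p of 0.0047. The number of SCD counts per FASN count went from 3.86, 2.63 and 2.98 in the control libraries to 1.22, 1.26 and 1.25 in the POGK libraries. ELOVL6, which elongates palmitate, rose 1.53-fold, from 96.9 ± 5.99 to 148 ± 3.29 CPM, and ELOVL5, which elongates polyunsaturated chains, fell by 0.21 on the log2 scale. The ELOVL5 fall passed at an adjusted p of 0.0183 and was lost with library size alone, at -0.02, and without any 1 of the POGK replicates.

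FADS1 and FADS2, the desaturases of polyunsaturated fatty acids, lie on opposite strands of chromosome 11 and share 490 exon bases. The annotated span of FADS1 falls within that of FADS2. FADS1 did not pass, at 198 ± 10.2 and 199 ± 4.83 CPM and an adjusted p of 0.923. FADS2 rose 1.75-fold from a low level, 11.4 ± 0.93 to 19.96 ± 0.67 CPM. It also shares 49 exon bases with FEN1, a replication gene on the same strand that rose 5.33-fold, and the part of those reads in the FADS2 rise was not tested. LPIN1, a phosphatidate phosphatase, did not pass at an adjusted p of 0.0941, but passed without control replicate 1 at a log2 fold change of -0.29 in place of -0.21.

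The share of genes called was nearly the same in both branches, 72.2% for sterol and 70% for fatty acid genes, and near the 66% of all genes. Their directions are given side by side. In the sterol branch, the 18 genes from ACAT2 to DHCR7, 11 rose and 2 fell, with a median log2 fold change of 0.57, against 4 and 3 of 10 and a median of 0.09 for fatty acid genes. Of all genes 32.7% rose and 33.3% fell. With library size alone these were 13 and 1 for sterol and 6 and 1 for fatty acid genes. The genes were chosen with earlier results known, and the difference between the branches was not tested. Summed over its genes, the sterol branch held 1034, 942 and 989 CPM in control and 1677, 1545 and 1551 CPM in POGK libraries, a ratio of 1.61 between the means. The fatty acid branch held 1998, 2096 and 2018 CPM in control and 2590, 2508 and 2487 CPM in POGK libraries, a ratio of 1.24. The sterol sum per fatty acid sum was 0.517, 0.449 and 0.49 in control and 0.648, 0.616 and 0.623 in POGK libraries, which did not overlap.

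Single genes weighed differently in these sums. Without HMGCS1 the sterol sum still went from 913 ± 36.6 to 1279 ± 49.8 CPM. Without ACLY alone the fatty acid sum went from 1755 ± 12.6 to 1852 ± 50.6 CPM, a ratio of 1.06. Without both ACLY and FASN it went the other way, from 1524 ± 29.5 to 1393 ± 31.9 CPM. Within the sterol branch, the 7 genes up to farnesyl diphosphate went from 298 ± 7.57 to 691 ± 36.6 CPM, a ratio of 2.32. The 11 genes after it went from 691 ± 46.6 to 899.9 ± 39.0 CPM, a ratio of 1.30.

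**Figure D3:**
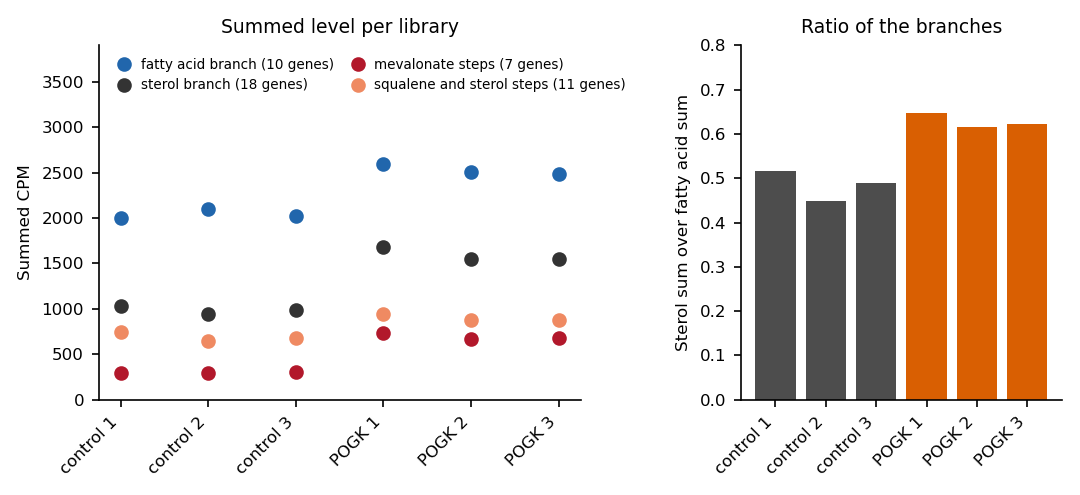
Left, CPM summed over the genes of each branch (y axis, from 0) in each library, with the sterol branch also split at farnesyl diphosphate. Right, the sterol sum divided by the fatty acid sum, as bars from 0. The ratio lies between 0.449 and 0.517 in control libraries and between 0.616 and 0.648 in POGK libraries.

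Of the 4 regulators 0 rose and 2 fell (50% called, against 66% of all genes), and 2 did not pass. SREBF2 was at 229, 210.4 and 237 CPM in control and 161, 152 and 155 CPM in POGK libraries, without overlap. It fell 1.44-fold, with a log2 fold change of -0.53, a standard error of 0.07 and an edgeR adjusted p of 2.25e-04. SREBF1 fell nearly as far, 1.43-fold, from 67.9, 78.3 and 66.9 CPM to 51.5, 47.2 and 49.8 CPM. The number of SREBF1 counts per SREBF2 count, not corrected for length, was 0.317 ± 0.048 in control and 0.317 ± 0.0050 in POGK libraries. These are mRNA levels, and the cut, active form of either protein was not measured.

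INSIG1, which retains SCAP and is itself a sensitive SREBP target, was at 268, 185 and 202 CPM in control and 278, 243 and 254 CPM in POGK libraries. Control replicate 1 lay inside the POGK range, and the difference, 0.24 on the log2 scale, did not pass at an adjusted p of 0.126. It passed without control replicate 1 at 0.42, and with library size alone at 0.45. HMGCS1 counts per INSIG1 count were 0.298, 0.32 and 0.424 in control libraries, against 1.23, 1.22 and 1.18 in POGK libraries. SCAP, the escort of the precursors, stood at 80.2 ± 0.94 and 88.2 ± 3.02 CPM and did not pass at an adjusted p of 0.0783, although the groups did not overlap.

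Of a further 12 genes of SREBP processing and sterol-regulated degradation, 4 rose, 4 fell and 4 did not pass. The share called, 66.7%, was close to the 66% of all genes. MBTPS2, the protease that makes the final cut of the precursors, rose 1.69-fold, from 76.9 ± 3.22 to 129.8 ± 3.63 CPM. INSIG2, the second INSIG gene, fell 1.91-fold, from 50.5, 40.6 and 47.4 CPM to 23.2, 24.9 and 24.3 CPM. ERLIN2, of an endoplasmic reticulum complex that takes part in sterol-regulated degradation, rose 1.32-fold.

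Of the 4 transport genes 0 rose and 2 fell (50% called, against 66% of all genes), and 2 did not pass. The largest change of all 36 members was in a sterol exporter. ABCG1, an exporter of cholesterol to mature lipoprotein particles, was at 19.6, 20.6 and 19.5 CPM in control and 2.54, 2.29 and 2.46 CPM in POGK libraries. It fell 8.16-fold, with a log2 fold change of -3.03, a standard error of 0.11 and an edgeR adjusted p of 8.43e-07. ABCA1, which loads cholesterol onto lipid-poor apolipoprotein, was at 20.4, 23.6 and 27.9 CPM in control and 4.75, 5.45 and 6.11 CPM in POGK libraries, and fell 4.42-fold at an adjusted p of 8.70e-06. The 2 groups lay far apart for both genes. Both calls held in each of the 14 alternatives, with log2 fold changes from -3.06 to -2.84 for ABCG1 and from -2.24 to -1.96 for ABCA1.

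NPC1, which moves cholesterol out of lysosomes, was at 168, 158 and 159 CPM in control and 155, 141 and 143 CPM in POGK libraries. These did not overlap, but the difference of -0.14 on the log2 scale missed the threshold at an adjusted p of 0.0917. With library size alone its direction turned, to 0.05. STARD4, a soluble sterol carrier, was at 54.9 ± 7.31 and 59.0 ± 0.65 CPM and did not pass at an adjusted p of 0.37.

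Of 16 other genes of cholesterol uptake, storage and sensing, 5 rose and 8 fell (81.25% called, against 66% of all genes). Their median log2 fold change was -0.31. LRP1, a large endocytic lipoprotein receptor, fell 13.8-fold, from 354, 223 and 216 CPM to 19.7, 18.1 and 19.8 CPM. MYLIP, a ubiquitin ligase of lipoprotein receptors, fell 5.55-fold, from 36.1 ± 7.35 to 6.48 ± 0.98 CPM. NPC2, the lysosomal partner of NPC1, fell 3.05-fold, from 193 ± 32.3 to 63.1 ± 3.37 CPM. Of the LXR genes, NR1H2 had 40.1 ± 8.94 and 58.6 ± 1.60 CPM with a log2 fold change of 0.55 that passed, and NR1H3 had 5.50 ± 1.01 and 4.50 ± 0.16 CPM and did not pass. These last 2 were named after their values were seen.

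Levels can be compared between genes only per transcript length, and reads per kilobase of exon, scaled to depth as CPM are (RPKM), were computed for this from the union of annotated exons. SCD was highest in control cells at 137 ± 8.34 RPKM. INSIG1, ELOVL5, ACLY, MSMO1 and EBP followed, from 59.8 ± 12.0 down to 47.7 ± 3.41 RPKM, and neighbours among them did not differ beyond their spread. In POGK cells ACLY was first at 129.8 ± 1.12 RPKM and SCD second at 109 ± 3.10 RPKM. HMGCS1 went from rank 19 of 36 at 11.3 ± 2.11 RPKM to rank 8 at 47.1 ± 3.79 RPKM, next to FASN at 49.2 ± 2.03 RPKM. SREBF2 was at 28.0 ± 1.70 RPKM in control cells, above SREBF1 at 8.63 ± 0.77 RPKM. ABCG1 went from rank 29 at 3.25 ± 0.10 RPKM to the last rank at 0.40 ± 0.02 RPKM.

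**Figure D4:**
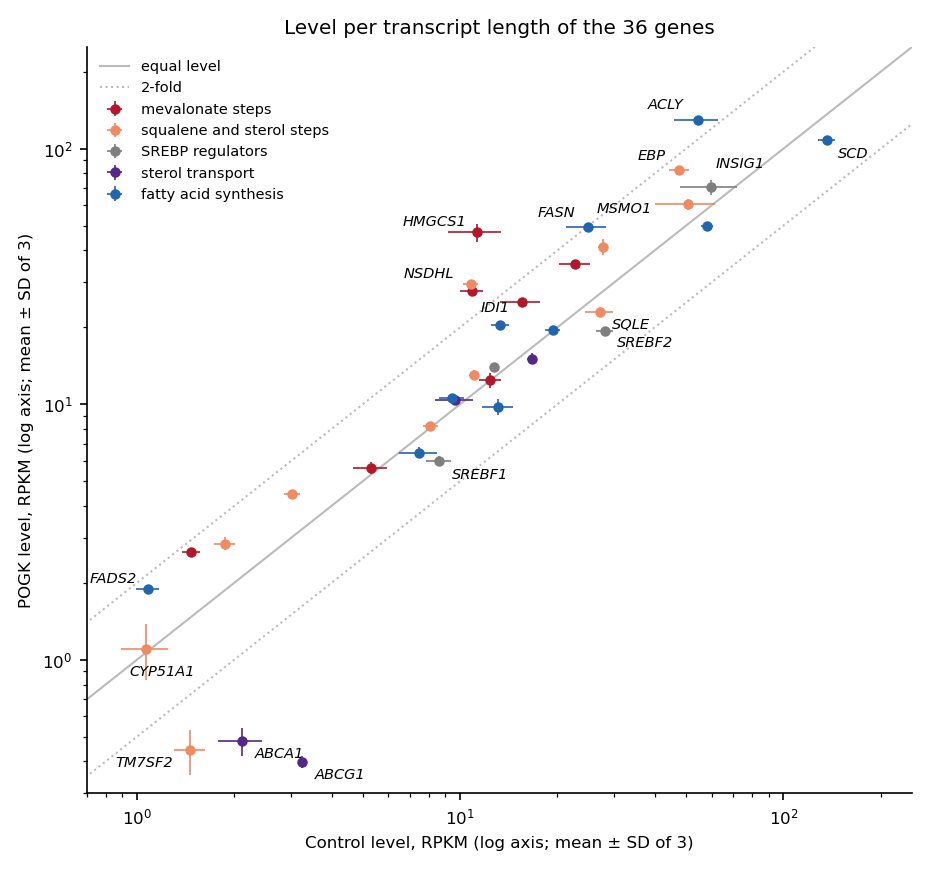
Level per transcript length in control (x axis) and POGK cells (y axis), in RPKM on log axes, for the 36 genes coloured by role, as mean ± SD of 3 libraries. The solid line marks equal levels and the dotted lines 2-fold. HMGCS1, NSDHL, IDI1 and ACLY lie above the upper dotted line, and ABCG1, ABCA1 and TM7SF2 below the lower one.

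Only control replicate 2 was placed against the other control libraries, and its place differed between members. It was not the control library farthest from the others. The chi-square statistic per gene, described below, was 22.5 between control replicates 2 and 3. It was 49.7 between 1 and 2 and 37.9 between 1 and 3. Control replicate 2 was the lowest control library for 19 of the 36 members (52.8%) and the highest for 12 (33.3%). Over all genes tested it was lowest for 35.2% and highest for 36.1%. It was lowest for 8 and highest for 2 of the 11 genes after farnesyl diphosphate, lowest for 3 and highest for 4 of the 7 before, and lowest and highest for 4 each of the 10 fatty acid genes. These counts were not tested. Its distance from the mean of the other control libraries was -0.49 on the log2 scale for HMGCS1, -0.39 for MSMO1, -0.34 for STARD4 and -0.33 for INSIG1. It was 0.35 for ACLY, 0.33 for ACAT2, 0.31 for FASN and 0.27 for FDPS. For ACLY, ACAT2, FASN and FDPS control replicate 2 thus lay on the side of the POGK libraries, and for HMGCS1, IDI1 and NSDHL on the far side.

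**Figure D5:**
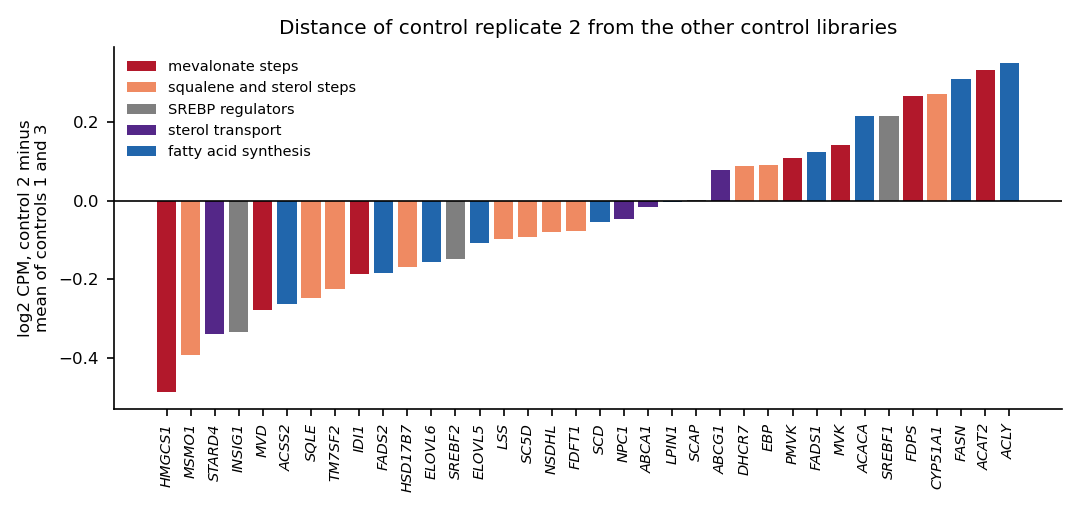
Distance of control replicate 2 from the mean of control replicates 1 and 3 (y axis, log2 CPM) for each of the 36 genes (x axis), sorted and coloured by role. HMGCS1 is lowest at -0.49 and ACLY highest at 0.35.

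Genes on other lists of lipid metabolism gave the setting. Of all genes tested, 32.7% rose and 33.3% fell. Of 12 genes of the isoprenoid paths that leave the mevalonate path, 6 rose and 4 fell (83.3% called, against 66% of all genes). NUS1, of dolichol synthesis, rose 1.54-fold, COQ2, of coenzyme Q synthesis, rose from 21.1 ± 5.05 to 46.5 ± 0.53 CPM, and RABGGTB, a subunit of the geranylgeranyl transferase of RAB proteins, fell 1.86-fold. Of 19 tested further genes of fatty acid synthesis and elongation, 5 rose and 9 fell (73.7% called). MID1IP1, a protein that activates acetyl-CoA carboxylase, fell 12.0-fold, from 28.6 ± 1.86 to 2.36 ± 0.35 CPM. SCD5, the second stearoyl-CoA desaturase gene, fell 3.22-fold, and MLXIPL, which encodes the carbohydrate-responsive factor ChREBP, fell from 23.4, 20.2 and 32.1 CPM to 9.92, 8.68 and 8.97 CPM.

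Of 18 genes of acyl-CoA, glycerolipid and lipid droplet metabolism, 9 rose and 8 fell (94.4% called, against 66% of all genes). HILPDA, a lipid droplet protein induced by low oxygen, fell 17.8-fold, from 592, 340.1 and 328 CPM to 24.1, 23.6 and 23.2 CPM, with control replicate 1 highest. PNPLA2, the triglyceride lipase of droplets, fell 1.95-fold, and PCYT2, of phosphatidylethanolamine synthesis, rose 2.71-fold from 14.9 ± 2.99 CPM. Of 18 genes of fatty acid oxidation, 4 rose, 7 fell and 7 did not pass (61.1% called). HADHA and HADHB, the subunits of the mitochondrial trifunctional protein, fell 1.85-fold and 1.82-fold, and DECR1, a reductase for unsaturated chains, fell 1.63-fold. Markers of lipid-storing adipocytes were near 0 in both groups, as given above.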

How the data were processed

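RNA was depleted of ribosomal RNA and reads were aligned to hg38, per the labels' protocols. Tools named in the submitters' processing notes are STAR, featureCounts, Trimmomatic, deepTools and SAMtools, without versions. Not given in the sources used here are the annotation, the strand setting and the handling of reads in shared exons. Per Ensembl gene, the deposited table held raw counts for 6 libraries. It also held a signal column per library that the authors made by dividing counts by 1 size factor, which was only checked. Per the file headers it further held the authors' log2 fold change with its standard error, a test score, a p-value and an adjusted p-value, by a tool not stated. These were used for 1 check of the calls, where the text names them as the authors'.

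Counts were tested with edgeR 4.0.16 (R 4.3.3), using the quasi-likelihood test with robust estimation, TMM scaling, Benjamini-Hochberg adjustment over the 15889 genes left by its default expression filter. Every adjusted p is from this test unless another is named. Standard errors came from the F statistic, and CPM used TMM-scaled library sizes. All groups were taken from the labels. Positions, exon lengths and overlaps came from GENCODE 44 (same build), and promoters from RefSeq. A chi-square statistic per gene between libraries of 1 group, over genes with at least 20 counts, was 1.36 to 2.62 for POGK and 22.5 to 49.7 for control libraries. Counting noise alone would give at most 1.02 with 95% probability. All pairs lay above this, and each library was kept as a replicate, although POGK replicates 2 and 3, at 1.36, were close to it. The single spread fitted per gene thus pooled a narrow and a wide group.

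The named genes were all 36 members, POGK, the full marker lists, and from each further list the 3 tested genes with the smallest adjusted p. The members and all lists were chosen with earlier results of these data known. Alternatives were DESeq2 1.42.0, limma-voom (limma 3.58.1), DESeq2-style size factors, library size alone, no filter, at least 1 CPM in 3 libraries, the replicate number as a block, each library left out in turn, ACAT2 or ACLY and ACSS2 left out of a branch median, and, chosen after seeing the data, voom with a spread per group. Scripts were tested on simulated data in which few genes changed and both groups had the same spread. This checked the code, and not how the fits act on data with unequal spread and many changed genes.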

Additional observations from a re-analysis of the deposited data

How the results depend on the processing

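Of 24 members called, 20 were called in the same direction in each of the 14 alternatives, and the exceptions were SQLE, ELOVL5, DHCR7 and ACSS2. The number of sterol branch genes called lower, 2, was 1 with DESeq2 and with library size alone, and 1 to 2 with 1 library left out, since SQLE was lost. The number of fatty acid genes called lower, 3, was 1 with library size alone. The sterol median of 0.57 was 0.77 with library size alone, and the fatty acid median of 0.09 was 0.28, which follows from the shift of all genes by that scaling. With 1 library left out the fatty acid median ran from 0.055 to 0.15. Reversed signs were found only for 6 genes that did not pass: PMVK, at -0.0019 with DESeq2-style size factors, -0.013 with at least 1 CPM in 3 libraries, -0.065 without control replicate 3 and -0.036 without POGK replicate 3 (up to 0.054 with another library left out); MVD and LSS without control replicate 2, at -0.00045 and -0.0052 (up to 0.17 and 0.066); CYP51A1 without control replicate 1 at -0.069 and without POGK replicate 1 or 2 at -0.049 and -0.053 (up to 0.24); NPC1 with library size alone at 0.051; and FADS1 with at least 1 CPM in 3 libraries at -0.0068 and without control replicate 1, control replicate 3 or POGK replicate 1 at -0.017, -0.0077 and -0.0078 (up to 0.052). With the replicate block 17 members were higher and 9 lower, as INSIG1 and MSMO1 passed at 0.26 and 0.27 on the log2 scale, and 5136 genes were higher and 5103 lower over the whole table. Deviations of same-numbered libraries correlated at 0.087, 0.041 and 0.0028 across genes, and those of differently numbered libraries at -0.089 to 0.046. The labels do not say what a replicate number shares, and the numbers were not taken to pair the samples. Among the members, depth was lowest for TM7SF2 and CYP51A1, with 578 and 865 counts over the 6 libraries. How far depth or the spread between libraries limited each member was not tested.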
